A study of Mus musculus with 6 samples.

Results

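Eph receptors and ephrins, a family of receptors and membrane-bound ligands that cells use to sense their neighbours, were followed in the villus epithelium of the mouse duodenum. The 10 genes are the receptors *Ephb2*, *Ephb3*, *Ephb4*, *Ephb6*, *Epha1*, *Epha2* and *Epha4* and the ligands *Efna1*, *Efnb1* and *Efnb2*, chosen by symbol, and each was found as 1 row among the 20409 features of the count table. RNA was sequenced from 3 double mutant and 3 wild-type mice, 1 library per mouse, with 1 male and 2 females in each group. In the double mutant villi (DMV), Smad4 was knocked out and beta-catenin carried a gain of function, through *Smad4* fl/fl and *Ctnnb* exon3 fl/wt alleles recombined by Villin-CreERT2, a tamoxifen-inducible Cre that is active throughout the intestinal epithelium, crypts as well as villi. These mice received 4 tamoxifen injections at 0.05 g/kg and were sampled on day 7. The wild-type villi (WTV) came from littermates that were not injected, on the same C57BL6-enriched background, so the mutations and the tamoxifen cannot be told apart. The sources used here give no ages, and they do not say which floxed alleles the littermates carried. Both alterations were made together, so the share of either one in a difference cannot be told apart.

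Eph receptors are receptor tyrosine kinases, and ephrins are their ligands on the surface of adjacent cells. EphA receptors bind mostly ephrin-A ligands, which are held by a lipid anchor, and EphB receptors bind mostly ephrin-B ligands, which span the membrane and can signal back into the cell that carries them. In the intestine, *Ephb2* and *Ephb3* are known as targets of beta-catenin and TCF that are highest in crypts, while ephrin-B1 is highest on differentiated cells, and the contact between both sides keeps crypt and villus cells apart.

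The libraries held 19678507 to 26337318 counts. Levels are given as CPM, counts relative to the library total after TMM scaling, and the floor of 3 counts lay between 0.125 and 0.163 CPM, which covers counting error only. *Smad4*, the deleted gene, measured 120, 180 and 144 CPM in WTV and 26.1, 36.8 and 32.1 CPM in DMV (log2 fold change -2.22, SE 0.187, edgeR adjusted p = 0.000145), so the labels held in every mouse. *Ctnnb1*, of which recombination removes an exon and leaves the rest of the transcript, so that its level checks nothing, had a log2 fold change of -0.15 (SE 0.118, edgeR adjusted p = 0.359). Among epithelial markers, *Vil1* measured 3709 to 4261 CPM in WTV and 2093 to 2389 CPM in DMV. *Epcam* and *Cdh1* did not pass, with means of 1782 and 802 CPM in WTV and 1823 and 849 CPM in DMV. Their log2 fold changes were 0.03 and 0.08 (edgeR adjusted p = 0.843 and 0.643). Of 11 markers of villus epithelium, 6 were lower and 1 was higher in DMV by edgeR, against 17% and 19.7% of all genes tested, and their summed level was 43255 to 49712 CPM in WTV and 27176 to 30793 CPM in DMV. WTV replicate 1 stood apart from the other wild-type mice, with 122 CPM for 6 goblet cell markers against 11023 and 11595 CPM, and with 7.91 CPM for 6 Paneth cell markers against 909 and 1500 CPM.

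The family moved in both directions in DMV. Of the 10 genes, all tested, 4 were higher (*Ephb2*, *Ephb4*, *Efna1*, *Efnb2*) and 4 were lower (*Ephb6*, *Epha1*, *Epha2*, *Efnb1*) at an edgeR adjusted p under 0.05, while *Ephb3* and *Epha4* did not pass. Among all 13346 genes tested, 36.8% passed, 19.7% as higher and 17% as lower. The median log2 fold change was 0.05 over the 10 genes and 0.02 over all genes tested. When the counts were scaled by library size alone, which moved the median of all genes to 0.22, the split was 5 higher and 2 lower among the 10 genes and 3732 higher and 1425 lower among all genes, against 2632 and 2273 with TMM. The 6 libraries did not overlap between the groups for 9 of the 10 genes, all but *Epha4*, as for 52.4% of all genes tested. At the log2 fold threshold of 2 used in the study, *Ephb2* alone passed, as did 5.3% of all genes tested, 3.04% as higher. In bulk RNA, fewer cells of a type and less RNA per cell cannot be told apart, and this holds for each level given here.

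**Figure D1:**
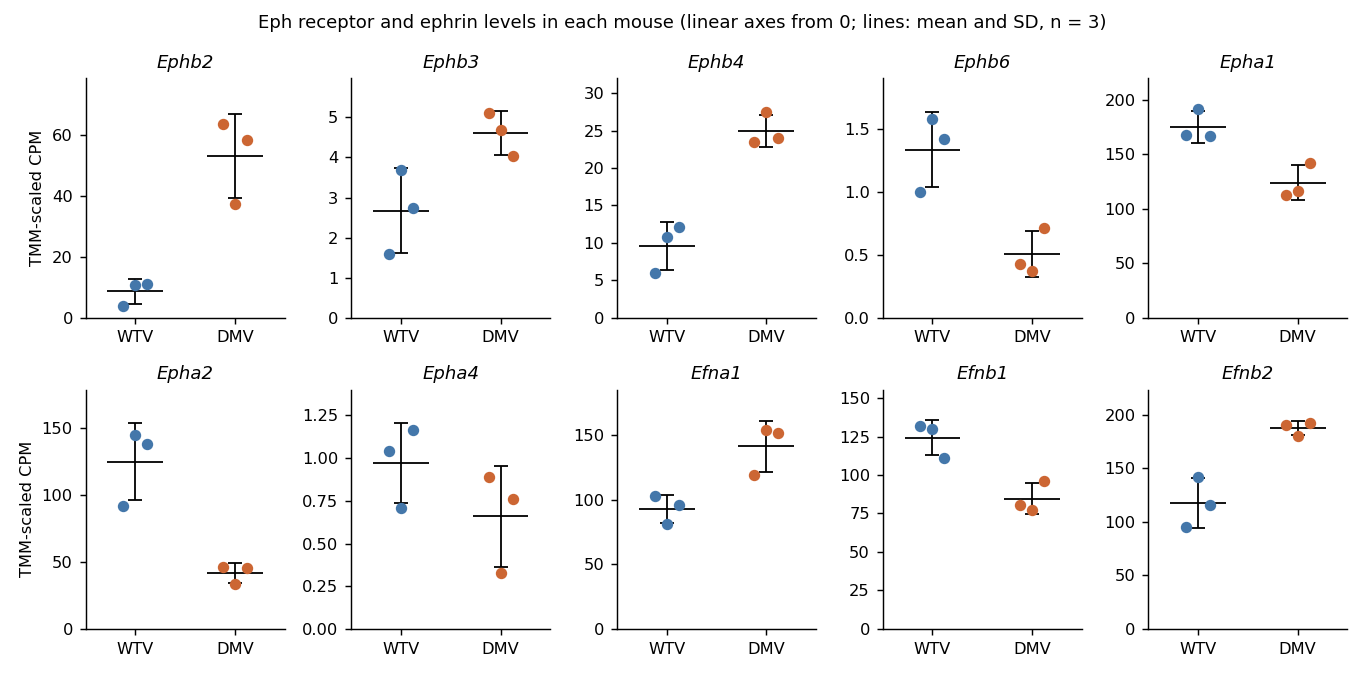
Level of each of the 10 genes in each mouse, in TMM-scaled CPM on linear axes that start at 0, with the mean and SD of 3 wild-type (WTV) and 3 double mutant (DMV) mice. The groups are separate in every panel but that of *Epha4*, and *Ephb2* rises from 3.92 to 11.1 CPM in WTV to 37.4 to 63.6 CPM in DMV.

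**Figure D2:**
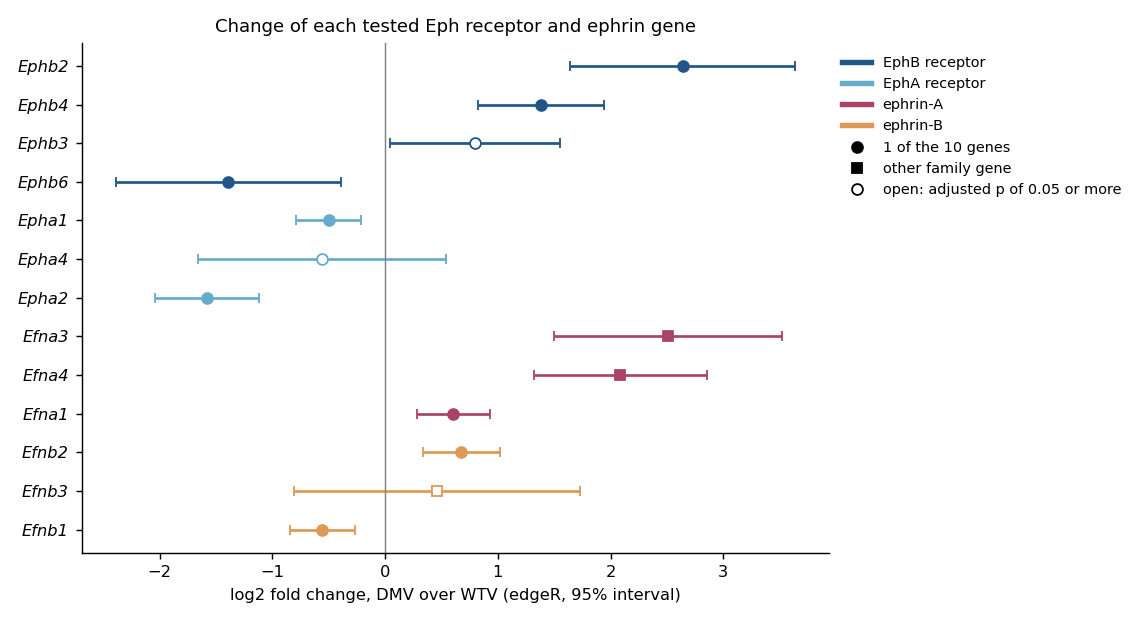
Log2 fold change of DMV over WTV with its 95% interval for the 10 genes (circles) and for 3 further family genes (squares), coloured by class, with open symbols where the edgeR adjusted p was 0.05 or more. EphB receptors and ephrin-B ligands each hold genes on both sides of 0, the EphA receptors lie below 0, and the ephrin-A ligands lie above 0.

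The sequences just upstream of 4 genes are shown because these genes carry the contrasts described here, *Ephb2* and *Epha2* with the largest change upward and downward by fold among the 10 genes, and *Efnb1* and *Efnb2* as ligands of 1 class that moved in opposite directions. Each is the 250 bases before the start site in RefSeq (table of build GRCm38.p6), found once in mm9 by exact match, at chr4:136391928-136392177 on the minus strand, chr4:140856886-140857135 on the plus strand, chrX:96331150-96331399 on the plus strand and chr8:8661243-8661492 on the minus strand. Written 5′ to 3′, capitals mark matches to a TCF/LEF word (CTTTGAA, or the same word with its last base or its last base but 1 changed between A and T, or both) or to the SMAD word CAGAC, searched on both strands, and the words do not overlap each other in these sequences.
Ephb2: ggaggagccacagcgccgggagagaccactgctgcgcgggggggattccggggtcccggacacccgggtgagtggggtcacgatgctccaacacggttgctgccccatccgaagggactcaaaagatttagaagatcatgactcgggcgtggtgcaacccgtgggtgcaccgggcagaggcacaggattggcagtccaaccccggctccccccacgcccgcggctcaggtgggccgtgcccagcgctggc
Epha2: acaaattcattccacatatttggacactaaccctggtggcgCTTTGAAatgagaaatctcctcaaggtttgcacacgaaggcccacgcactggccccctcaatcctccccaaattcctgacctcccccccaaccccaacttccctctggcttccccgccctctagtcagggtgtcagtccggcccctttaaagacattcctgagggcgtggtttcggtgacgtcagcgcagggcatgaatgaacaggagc
Efnb1: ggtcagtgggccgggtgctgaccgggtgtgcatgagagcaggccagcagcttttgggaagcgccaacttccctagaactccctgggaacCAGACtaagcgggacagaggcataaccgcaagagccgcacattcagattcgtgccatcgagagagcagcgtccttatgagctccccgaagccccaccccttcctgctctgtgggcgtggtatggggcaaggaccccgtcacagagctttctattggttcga
Efnb2: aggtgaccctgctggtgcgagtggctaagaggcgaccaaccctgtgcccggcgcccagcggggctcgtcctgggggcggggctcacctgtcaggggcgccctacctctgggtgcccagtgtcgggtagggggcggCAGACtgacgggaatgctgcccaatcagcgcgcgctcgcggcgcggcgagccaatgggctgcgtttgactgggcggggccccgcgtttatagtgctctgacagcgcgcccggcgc
In 300-base windows that add 50 bases after the start site, a TCF/LEF word was found in 1 of the 11 promoters of the 10 genes (*Efna1* has 2 start sites), or 9.09%, against 16.9% of 32851 promoters in the table. That match is the one in *Epha2*, which begins at position -209 from the start site. The SMAD word was found in 7 of the 11 promoters, or 63.6%, against 49.6% of all promoters, and it begins at position -161 in *Efnb1* and -115 in *Efnb2*. A match describes letters in a window and is not a binding site, and windows without one say nothing about either factor.

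Among the EphB receptors, *Ephb2* and *Ephb4* rose and *Ephb6* fell. *Ephb2* (chr4:136203454-136391903 in mm9), the receptor that marks crypt cells in a gradient, measured 3.92, 10.7 and 11.1 CPM in WTV and 63.6, 37.4 and 58.3 CPM in DMV. Every double mutant mouse lay above every wild-type mouse, the lowest of all 6 was WTV replicate 1, and DMV replicate 2 was the lowest of its group. The rise was 6.23-fold (log2 fold change 2.64, SE 0.418, edgeR adjusted p = 0.00381), at the 98.8th percentile of the log2 fold changes of all genes tested. Without WTV replicate 1 the log2 fold change was 2.28. *Ephb3* (chr16:21204828-21223378), the receptor that shares the crypt with *Ephb2*, measured 1.58, 3.70 and 2.73 CPM in WTV and 5.12, 4.68 and 4.03 CPM in DMV. The groups were separate by a small gap, and the log2 fold change of 0.79 (SE 0.331, 95% interval 0.04 to 1.55) had an unadjusted p of 0.0409 and an edgeR adjusted p of 0.0920. It passed without WTV replicate 2 (log2 fold change 1.10, adjusted p = 0.0493), and it passed at an adjusted p of 0.0477 with library size alone.

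*Ephb4* (chr5:137791337-137819897), best known from veins, where it meets ephrin-B2 on arteries, measured 6.00, 10.7 and 12.1 CPM in WTV and 23.6, 27.5 and 24.0 CPM in DMV. The DMV values lay close together and above all WTV values, with WTV replicate 1 again the lowest. The rise was 2.61-fold (log2 fold change 1.39, SE 0.245, edgeR adjusted p = 0.00333). Since *Ephb4* is a gene of vessels, markers of endothelium were read beside it: of 7 measured, *Kdr* had 0 counts in 5 mice and 2 in the other, *Pecam1* had 2 to 15 counts, and none of the 3 that could be tested passed. *Tek*, which codes for an angiopoietin receptor, had the smallest adjusted p of these, with 25, 20 and 33 counts in WTV and 55, 48 and 52 counts in DMV, without overlap between the groups (log2 fold change 0.94, SE 0.328, edgeR adjusted p = 0.0526). *Egfl7* went the other way, at 1.42, 1.14 and 1.36 CPM in WTV and 0.939, 1.07 and 0.617 CPM in DMV, without overlap. Its log2 fold change was -0.58 (SE 0.380, edgeR adjusted p = 0.266), and that of *Pecam1* was 0.79 (SE 0.657, edgeR adjusted p = 0.377). The summed level of the 7 endothelial markers was 3.12 to 4.30 CPM in WTV and 4.51 to 4.88 CPM in DMV, also without overlap. The part of endothelium in the level of *Ephb4* was not tested. *Cdh5*, *Eng* and *Emcn* were not analysed here. Exons of *Ephb4* share 33 bp, or 0.711% of its exon length, with *Zan*, which was higher in DMV as well (log2 fold change 2.13, edgeR adjusted p = 0.0185).

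*Ephb6* (chr6:41555481-41570508), a receptor whose kinase domain is inactive, had 24, 29 and 28 counts in WTV and 9, 8 and 15 counts in DMV, or 1.00, 1.58 and 1.42 CPM against 0.422, 0.371 and 0.712 CPM. The groups did not overlap, but these are the fewest counts among the genes that passed. The log2 fold change was -1.39 (SE 0.439, edgeR adjusted p = 0.0363), which is 0.381 of the wild-type level. The call was lost without WTV replicate 2 (adjusted p = 0.111), WTV replicate 3 (0.0895), DMV replicate 1 (0.110) or DMV replicate 2 (0.132). It was also lost with DESeq2 (0.0566), the replicate block (0.0724), no filter on low counts (0.0579) and library size alone (0.0607).

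Some markers of crypt cells were higher in DMV beside *Ephb2* and *Ephb4*. The summed level of 9 markers of crypt stem and cycling cells was 86.3, 189 and 203 CPM in WTV and 445, 386 and 359 CPM in DMV, with 5 of the 9 higher (*Lgr5*, *Smoc2*, *Mki67*, *Top2a* and *Pcna*) and 0 lower in DMV by edgeR, against 19.7% and 17% of all genes tested. *Olfm4*, *Slc12a2*, *Axin2* and *Ascl2* did not pass (edgeR adjusted p = 0.319, 0.0541, 0.288 and 0.324), and *Olfm4* alone took 5.17, 50.4 and 66.8 CPM of the sum in WTV and 133, 92.0 and 80.2 CPM in DMV. Like *Ephb2*, *Ephb3* and *Ephb4*, this sum was lowest in WTV replicate 1. *Lgr5*, the stem cell marker of the list, had 4, 17 and 16 counts in WTV and 74, 50 and 58 counts in DMV (log2 fold change 2.19, edgeR adjusted p = 0.0139). The part of these cells in the levels of the receptors was not tested.

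Both abundant EphA receptors fell. *Epha2* (chr4:140857155-140885299), a receptor for ephrin-A1 in many epithelia, measured 92.1, 145 and 138 CPM in WTV and 46.6, 33.4 and 45.4 CPM in DMV. The highest double mutant value was below the lowest wild-type value, which was again that of WTV replicate 1. The level in DMV was 0.334 of that in WTV (log2 fold change -1.58, SE 0.203, edgeR adjusted p = 0.000831), the smallest adjusted p of the 10 genes. *Epha1* (chr6:42308486-42323267), the founding member of the family, measured 167, 192 and 166 CPM in WTV and 112, 117 and 142 CPM in DMV. Here too the groups did not overlap, with a smaller gap. The log2 fold change was -0.50 (SE 0.127, edgeR adjusted p = 0.0151), and the call was lost without WTV replicate 2 (adjusted p = 0.0573), without DMV replicate 2 (0.0581) and with library size alone (log2 fold change -0.31, adjusted p = 0.0823). *Epha1* shares 160 bp, or 4.89% of its exon length, with *Zyx* on the other strand, which was lower in DMV by a similar amount (log2 fold change -0.53, edgeR adjusted p = 0.00648), and the strand setting of the counting is not given in the sources used here.

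*Epha4* (chr1:77363760-77511663), which binds ligands of both classes, measured 1.04, 0.707 and 1.16 CPM in WTV and 0.892, 0.325 and 0.760 CPM in DMV. The groups overlapped. The log2 fold change of -0.56 had a 95% interval of -1.66 to 0.54 (edgeR adjusted p = 0.397), so no change was called, and changes within this interval are not excluded.

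The ligands did not follow 1 direction. *Efna1* (chr3:89075655-89085064), the main ligand of EphA2 and EphA1, measured 103, 81.2 and 95.8 CPM in WTV and 119, 154 and 152 CPM in DMV. The lowest double mutant mouse lay above the highest wild-type mouse. The rise was 1.52-fold (log2 fold change 0.60, SE 0.142, edgeR adjusted p = 0.0111).

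*Efnb2* (chr8:8617434-8661239), a ligand of EphB4 and EphB2, measured 94.97, 142 and 115 CPM in WTV and 191, 180 and 192 CPM in DMV. The double mutant mice were close together and all above the wild-type mice, a 1.60-fold rise (log2 fold change 0.68, SE 0.149, edgeR adjusted p = 0.00833). *Efnb1* (chrX:96331469-96344330), the ligand that restricts EphB-positive cells to the crypt, measured 132, 130 and 111 CPM in WTV and 80.2, 77.1 and 95.9 CPM in DMV. All double mutant values were below all wild-type values. The log2 fold change was -0.56 (SE 0.127, edgeR adjusted p = 0.00968), 0.679 of the wild-type level. *Ephb2*, *Ephb4*, *Epha2*, *Efna1*, *Efnb1* and *Efnb2* passed under each of 8 other settings of the test and without any single mouse, but of these 6 genes *Ephb2* alone passed the fold threshold of the study.

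To compare genes with each other, levels were divided by exon length (RPKM, which is CPM per kb of exon) and summed by class in each mouse. The summed EphB receptor level was 2.12, 4.17 and 4.29 RPKM in WTV and 11.05, 9.74 and 10.6 RPKM in DMV, 3.11-fold higher by the means of log2 values. The summed EphA receptor level was 71.0, 89.7 and 80.6 RPKM in WTV and 44.4, 42.8 and 53.3 RPKM in DMV, 0.582 of the wild-type level. Neither sum overlapped between the groups, and in both groups EphA receptor RNA was far above EphB receptor RNA. Each difference had an exact permutation p of 0.1, two-sided, which is the smallest that 3 against 3 mice can give.

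Ephrin-B RNA as a sum measured 58.0, 67.3 and 56.3 RPKM in WTV and 63.1, 59.9 and 67.9 RPKM in DMV (difference 0.07 on the log2 scale, exact permutation p = 0.5), and the groups overlapped. This depends on the scaling, since with library size alone the difference was 0.27 (exact permutation p = 0.1). Ephrin-A RNA, here *Efna1*, was 1.52-fold higher (exact permutation p = 0.1). The ratio of EphB receptor to ephrin-B RNA was 0.0366, 0.0619 and 0.0762 in WTV and 0.175, 0.163 and 0.156 in DMV, 2.96-fold higher in DMV (exact permutation p = 0.1). The ratio of *Ephb2* to *Ephb3* was 1.23, 1.45 and 2.02 in WTV and 6.20, 3.99 and 7.21 in DMV, a 3.67-fold difference with the same p.

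A further 3 ratios were chosen after the values were seen and are given as a description. The ratio of EphA receptor to ephrin-A RNA was 1.27, 2.02 and 1.54 in WTV and 0.683, 0.508 and 0.641 in DMV, above 1 in each wild-type mouse and below 1 in each double mutant mouse with these exon lengths. The ratio of *Efnb2* to *Efnb1* was 0.520, 0.785 and 0.748 in WTV and 1.71, 1.68 and 1.44 in DMV, without overlap. On which side of 1 a ratio lies depends on the lengths used: in CPM, *Efnb2* was above *Efnb1* in WTV replicates 2 (142 against 130 CPM) and 3 (115 against 111 CPM) as well. The ratio of *Epha2* to *Epha1* was 0.385, 0.528 and 0.581 in WTV and 0.290, 0.200 and 0.224 in DMV.

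**Figure D3:**
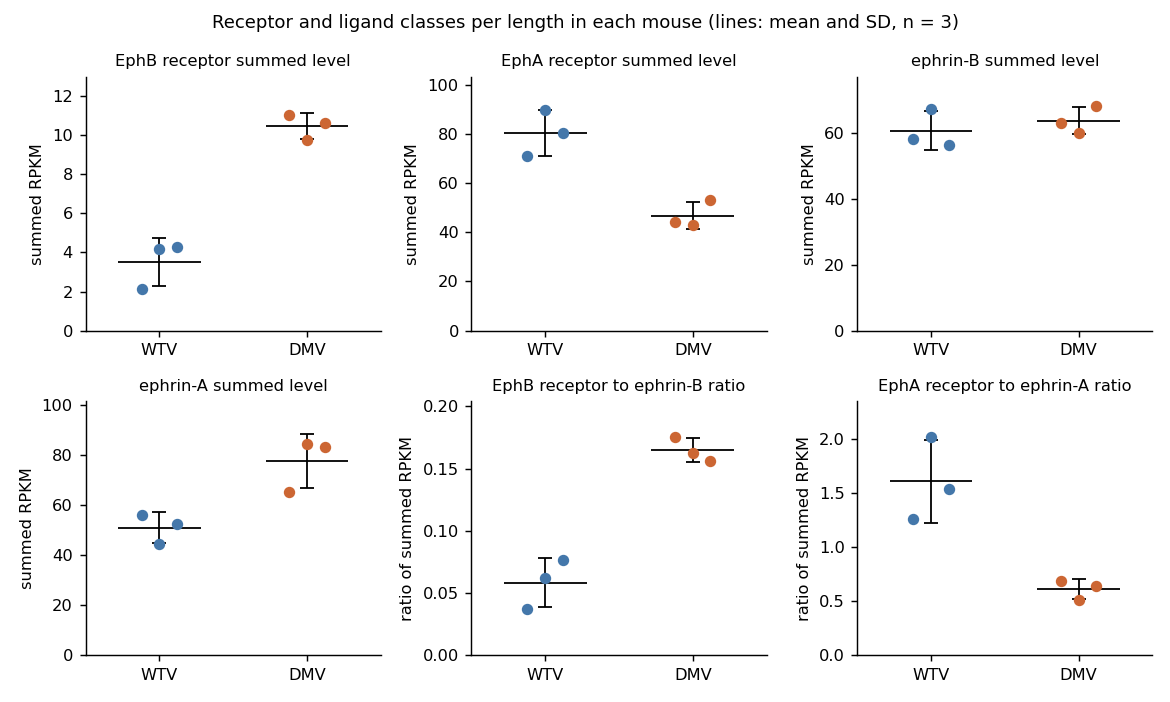
Summed RPKM of each receptor and ligand class, and ratios of receptor to ligand sums, in each of 3 WTV and 3 DMV mice, with the mean and SD. EphB receptors and ephrin-A are higher in DMV, EphA receptors are lower, the ephrin-B sums overlap, and the EphA to ephrin-A ratio is lower in DMV.

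In order of RPKM, *Epha1* (53.5) and *Efna1* (50.9) led in WTV with overlapping ranges, followed by *Efnb1* (36.0), then *Epha2* (26.7) and *Efnb2* (24.5), whose ranges overlapped. *Ephb4* (2.07) was the highest of the EphB receptors and did not overlap *Ephb2* (0.680), the next below it. *Ephb2* overlapped *Ephb3* (0.425), and *Ephb3* overlapped *Ephb6* (0.353). *Epha4* (0.153) was last, without overlap with *Ephb6*. In DMV, *Efna1* (77.5) stood alone at the top, *Efnb2* (39.2) and *Epha1* (37.8) overlapped, and *Efnb1* (24.5), *Epha2* (8.94), *Ephb4* (5.39), *Ephb2* (4.21) and *Ephb3* (0.733) followed without overlap between neighbours. *Ephb6* (0.133) and *Epha4* (0.104) were last and overlapped.

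As a share of the summed RPKM of the 10 genes, *Efna1* went from a mean of 26.2% in WTV to 39.0% in DMV and *Efnb2* from 12.5% to 19.8%. *Epha1* went from 27.4% to 19.0%, *Epha2* from 13.6% to 4.52% and *Efnb1* from 18.5% to 12.3%. *Ephb2* made up 0.344% in WTV and 2.14% in DMV, and *Ephb4* 1.05% and 2.73%, so both stayed small parts of the family's RNA. Shares add up to a fixed sum, so a rise of 1 gene lowers the shares of the others.

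**Figure D4:**
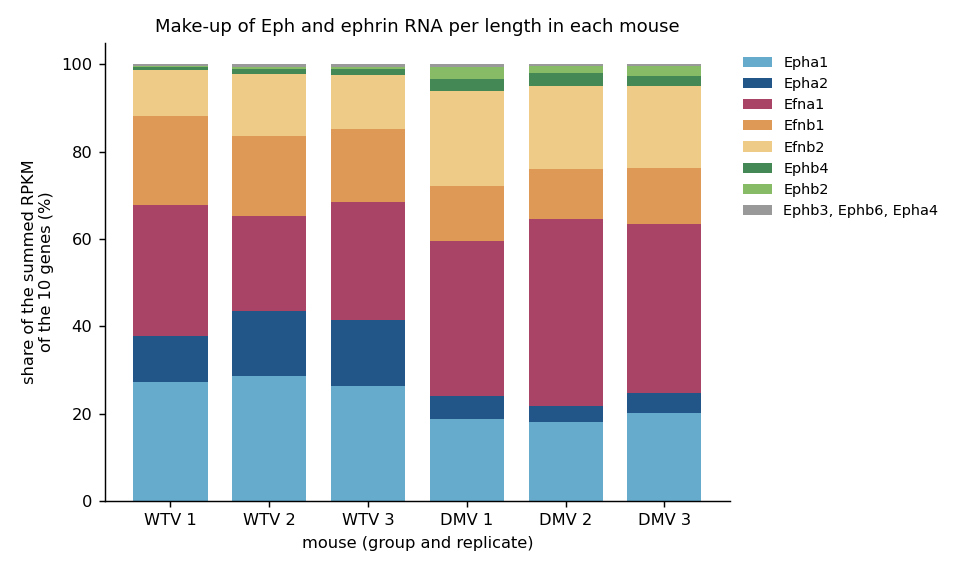
Share of the summed RPKM of the 10 genes that each gene takes in each mouse, as stacked bars from 0 to 100%. *Efna1* and *Efnb2* take larger shares in the 3 DMV mice, *Epha1*, *Epha2* and *Efnb1* smaller ones, and *Ephb2* and *Ephb4* stay thin bands in both groups.

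Of the 12 other Eph receptor and ephrin genes of the mouse, 6 had a row, and 3 could be tested. *Efna3* and *Efna4*, ephrin-A ligands, were both higher in DMV. *Efna3* measured 0.625, 1.20 and 0.455 CPM in WTV and 2.96, 5.94 and 4.03 CPM in DMV (log2 fold change 2.51, SE 0.443, edgeR adjusted p = 0.00318). *Efna4* measured 0.791, 1.52 and 1.57 CPM in WTV and 4.37, 6.49 and 5.55 CPM in DMV (log2 fold change 2.09, SE 0.338, edgeR adjusted p = 0.00217). For both ligands all double mutant mice lay above all wild-type mice, at levels far below that of *Efna1*. *Efnb3*, the third ephrin-B ligand, had 5 to 24 counts per mouse and a log2 fold change of 0.46 (SE 0.557, edgeR adjusted p = 0.550). *Epha3*, *Epha7* and *Efna2* had at most 3 counts in any mouse, and *Epha5*, *Epha6*, *Epha8*, *Epha10*, *Ephb1* and *Efna5* were not analysed here.

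*Efna1*, *Efna3* and *Efna4* lie side by side on the minus strand within 66296 bp of chromosome 3 (chr3:89075655-89141950), and all were higher in DMV. Within 100 kb on either side, 19 other genes were tested, of which 5 were higher and 1 was lower, against 19.7% and 17% of all genes. The 5 were *Muc1*, *Trim46*, *Krtcap2*, *Slc50a1* and *Cks1b*, and the lower one was *Zbtb7b*, all named after their values were seen. Their mean levels in WTV were 0.0531, 0.881, 20.4, 7.05, 0.815 and 352 CPM in this order, so that *Muc1* lay below the floor of 3 counts there. The span of *Efna3* overlaps that of the lincRNA *Gm15998*, and the span of *Efna4* that of *4731419I09Rik*, both on the plus strand. Whether their exons overlap was not analysed. Where they do, reads of the ligands and of these transcripts could not be told apart if strand was not used.

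Genes that act downstream of the receptors and ligands were read from a list of 48, of which 45 were tested. By edgeR with TMM, 3 were higher and 12 were lower in DMV, or 6.67% and 26.7% of the tested genes of the list, against 19.7% and 17% of all genes. With library size alone 8 were higher and 5 lower, beside 3732 higher and 1425 lower among all genes. The balance of higher and lower calls in the list thus depends on the scaling, and the calls among all genes shift with it. The median log2 fold change with TMM was -0.29, against 0.02 for all genes. *Tiam1*, a Rac exchange factor that binds Eph receptors and ephrin-B, measured 0.542, 0.816 and 1.72 CPM in WTV and 3.24, 2.32 and 2.94 CPM in DMV (log2 fold change 1.47, SE 0.446, adjusted p = 0.0314). *Sipa1l1*, a Rap GTPase-activating protein, measured 41.4, 46.1 and 48.3 CPM in WTV and 110, 95.1 and 93.0 CPM in DMV (log2 fold change 1.13, SE 0.119, adjusted p = 0.000333). In both, the groups were separate. *Ptk2*, the focal adhesion kinase, had a log2 fold change of 0.41 (SE 0.129, adjusted p = 0.0349). The call of *Tiam1* was lost without WTV replicate 2 or any 1 of the DMV replicates, and that of *Ptk2* with the replicate block, without any 1 of the WTV replicates and without DMV replicate 1 or 3.

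Among the genes that fell, *Kalrn*, a guanine nucleotide exchange factor that acts downstream of EphB2 in neurons, measured 195, 167 and 131 CPM in WTV and 44.9, 48.9 and 61.5 CPM in DMV (log2 fold change -1.67, SE 0.178, edgeR adjusted p = 0.000359). All double mutant mice lay far below all wild-type mice, so *Kalrn* moved against *Ephb2*. *Src*, a kinase that Eph receptors and ephrin-B recruit, fell from a mean of 265 to 150 CPM (log2 fold change -0.82, SE 0.101, edgeR adjusted p = 0.000664). The polarity gene *Pard6b* had a log2 fold change of -0.73 (SE 0.110, adjusted p = 0.00154) and the adaptor gene *Crkl* one of -0.58 (SE 0.139, adjusted p = 0.0120), a call that was lost with library size alone. By role, 3 of 33 tested genes of forward signalling were higher and 9 lower, or 9.09% and 27.3%, against 19.7% and 17% of all genes. Of 5 genes of reverse signalling, 0 were higher and 2 were lower, *Pard6b* and *Stat3*. The call of *Stat3* was lost with library size alone, with no filter on low counts, with the replicate block, and without WTV replicate 2 or 3 or DMV replicate 2 or 3. *Stat3* was named after its values were seen.

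**Figure D5:**
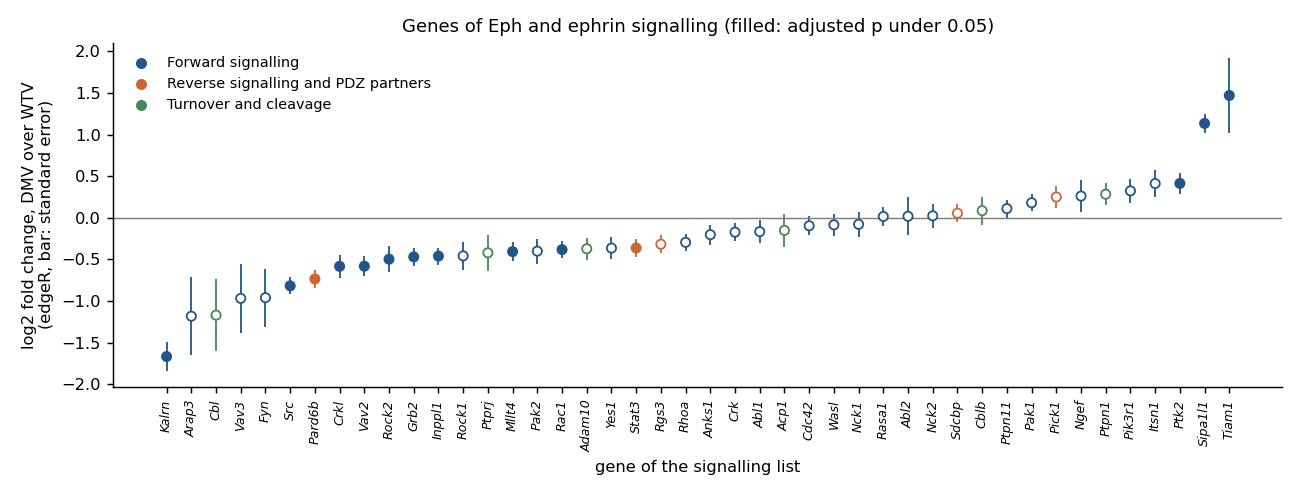
Log2 fold change of DMV over WTV for 44 of the 45 tested genes of the signalling list, sorted by size and coloured by role, with the standard error as bars and filled points for an edgeR adjusted p under 0.05. The 3 filled points above 0 are *Tiam1*, *Sipa1l1* and *Ptk2*, and 11 filled points lie below 0, led by *Kalrn* at -1.67.

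Across the 6 mice, which fall into the 2 groups compared, the log2 CPM of *Ephb2* was most like that of *Spag5* (Pearson r = 0.999), *B3galtl* (0.998) and *Smarca2* (0.998) among 7911 genes with a mean of at least 10 CPM. An r over 0.95 was found for 261 of these genes. Within the family, r with *Ephb2* was 0.968 for *Efnb2*, 0.964 for *Ephb4* and 0.897 for *Ephb3*, and -0.873 for *Efnb1*, and *Efnb2*, *Ephb4* and *Ephb3* shared with *Ephb2* the low value of WTV replicate 1. These values take in the difference between the groups and the scaling that all genes of a library share, and they are a description without a test.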

How the data were processed

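RNA of duodenal villus epithelium, released by EDTA, was sequenced after enrichment of polyadenylated transcripts. Per the labels, HISAT2 and featureCounts were used with mm9, and what the authors deposited are raw counts per gene, 1 column for each mouse, neither normalized nor pooled. The strand setting and the handling of reads that match several genes are not given in the sources used here. Symbols, positions and exon lengths came from GENCODE for mm9, which matched 20032 of 20073 gene identifiers, and 336 further features lie outside the annotation (0.214 to 0.270% of counts). 

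These counts were then analysed in R 4.3.3. The main test was edgeR's quasi-likelihood F test (edgeR 4.0.16, glmQLFTest after a robust fit) on 13346 genes that filterByExpr kept, with TMM factors, all 6 mice and no covariates, with Benjamini-Hochberg adjustment over all genes tested at 0.05. Totals of 19678507 to 26337318 counts per mouse set the precision. Sums and ratios were compared by two-sided exact permutation tests. DESeq2 1.42.0 and limma 3.58.1 served as alternatives. The steps were tested on simulated data. No 2 libraries of a group agreed within sampling noise (chi-square per degree of freedom 23.9 to 105).

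The 10 genes, the 12 other family genes, the 48 signalling genes and the marker lists were chosen with earlier results of these data known. Named were all 10 genes, the other family genes tested or over 10 counts in a mouse, up to 4 signalling genes past the threshold at either end, *Smad4* and *Ctnnb1*, and the 3 genes most like *Ephb2*. Markers were summed per mouse. In WTV and DMV they came to 0.272 to 0.708 and 0.557 to 0.892 CPM for fibroblasts, 4.17 to 7.73 and 4.22 to 11.3 CPM for smooth muscle, and 0.326 to 0.505 and 0.422 to 0.742 CPM for enteric neurons and glia. Myeloid markers summed to 3.87 to 5.10 and 5.49 to 7.83 CPM, without overlap. Lymphocyte markers summed to 77.0 to 146 and 63.0 to 104 CPM, with *Ptprc* and *Cd8a* lower in DMV (log2 fold change -1.29 and -0.92, edgeR adjusted p = 0.00545 and 0.0191). Tuft cell markers summed to 63.5 to 84.6 CPM in WTV and 8.40 to 10.1 CPM in DMV, and enteroendocrine markers to 133 to 149 and 57.1 to 66.3 CPM. Goblet and Paneth cell markers in DMV summed to 4647 to 5048 and 153 to 248 CPM.

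The alternatives were DESeq2, limma-voom, RLE factors, library size alone, no filter, a filter of at least 10 counts in every mouse of a group, the replicate number as a block, sex as a covariate, the fold threshold of the study, each mouse left out and, for sums and ratios, the longest transcript as length in place of all exons. Replicate numbers match in sex, but same-numbered mice did not deviate together (r = 0.012, -0.146 and 0.008), so they were not taken as pairs. Proteins were not analysed here. By name, 1 gene of the signalling list is not reported here.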

Additional observations from a re-analysis of the deposited data

How the results depend on the processing

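No gene of the 10 changed direction under any setting tried, nor did any sum or ratio of classes. With library size alone, 2 of the 10 genes were lower (*Epha1* and *Ephb6* lost), 8 signalling genes were higher and 5 were lower. DESeq2 called 3 of 47 signalling genes higher and 19 lower, beside 2628 and 2524 of 15645 genes. At the fold threshold of the study, 1 of the 10 genes was higher (*Ephb2*) and 0 were lower. Of the signalling genes, 0 were higher and 0 lower. At that threshold 5.3% of all genes passed in either direction, 3.04% as higher. Leaving out 1 mouse gave 4 to 5 of the 10 genes higher and 2 to 4 lower (2 without WTV replicate 2 or DMV replicate 2), 1 to 2 signalling genes higher (1 without DMV replicate 1 or 3) and 8 to 17 lower, beside 1812 to 2783 higher and 1630 to 2361 lower among all genes. With the replicate block, 4 of the 10 genes were higher and 3 lower, since *Ephb6* was lost (edgeR adjusted p = 0.0724), and 2084 and 1750 of all genes passed; no other gene of the 10 changed its call. *Ephb6* was also lost without a filter on low counts (adjusted p = 0.0579) and with library size alone (0.0607). The causes were not tested. Sums and ratios had an exact permutation p of 0.1 at best, so they could not pass. *Ephb6* and *Epha4* rest on under 30 counts per mouse, and the part of depth in their calls was not tested.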
